A study of Mus musculus with 48 samples.

Results

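The genes described here are 10 transporters, channels and enzymes through which astrocytes keep the fluid around neurons in balance. They are *Slc1a2*, *Slc1a3*, *Glul*, *Aqp4*, *Kcnj10*, *Gja1*, *Gjb6*, *Slc6a11*, *Gldc* and *Aldh1l1*. They were chosen by name for these functions, all 10 were found among the 46983 gene identifiers of the count tables, and all 10 passed the filter on low counts. They were followed in brain tissue of 3-month-old male C57Black/6 mice after middle cerebral artery occlusion (MCAO), a stroke model in which the artery was coagulated and cut, so that the occlusion was permanent and left a small infarct in the parietal cortex. RNA was measured in 48 libraries of 11 groups. MCAO and sham mice were taken at 3 h, 12 h, 24 h, day 3 and day 7 after surgery, with 4 sham libraries at each time, 4 MCAO libraries at 24 h and 5 at the other times, and 4 control libraries came from uninjured cortex. The labels describe the tissue both as the damaged part of the cortex with intact tissue around it and as forebrain hemispheres. Each MCAO piece held injured and uninjured tissue, so that each MCAO value averages over the lesion and its surroundings. In every group, fewer astrocytes cannot be told apart from less RNA in each astrocyte, and RNA of these genes from other cells was not separated.

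Astrocytes clear the glutamate released at synapses through *Slc1a2* (GLT-1) and *Slc1a3* (GLAST) and turn it into glutamine with *Glul*, glutamine synthetase. Their endfeet on blood vessels carry the water channel *Aqp4* and the potassium channel *Kcnj10* (Kir4.1), and the connexins *Gja1* (Cx43) and *Gjb6* (Cx30) join neighbouring astrocytes through gap junctions. *Slc6a11* (GAT-3) takes up GABA, *Gldc* is the decarboxylase of the glycine cleavage system, and *Aldh1l1* oxidises formyltetrahydrofolate and is widely used as an astrocyte marker.

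The 10 genes did not move as a block. *Aqp4* rose at day 3 and day 7 after MCAO and *Gja1* rose at day 7, both against sham. *Gldc* fell at 24 h and day 3 against control but was not called against sham at any time. Its sham means at those times, 5.81 and 8.57 CPM, also lay below the control mean of 18.5 CPM. Both *Gldc* calls were lost without any 1 of several libraries. *Slc1a2* and *Glul* were lower on average after MCAO (log2 fold changes of -0.34 and -0.33 over all times), which was under the fold required for a call. None of *Slc1a2*, *Glul*, *Slc1a3*, *Slc6a11*, *Kcnj10*, *Gjb6* and *Aldh1l1* was called in any comparison of the main fit. Some of them were called under alternatives given below, including *Kcnj10* and *Aldh1l1* at day 3 against sham. In GRCm38 *Aqp4* lies on chromosome 18 (15389496 to 15410982, minus strand), *Gja1* on chromosome 10 (56377330 to 56402513, plus strand), *Gldc* on chromosome 19 (30098447 to 30175429, minus strand), *Slc1a2* on chromosome 2 (102658659 to 102790784, plus strand) and *Glul* on chromosome 1 (153899944 to 153909723, plus strand).

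Levels are CPM, the counts of a gene per 1000000 counts of the library, after scaling by edgeR's trimmed mean of M-values (TMM), and were compared only within a gene. The libraries were primed on the polyadenylated end of the RNA, so that reads lie near the 3′ end. Each held 1522668 to 2826735 counts on genes. A gene was called where edgeR's quasi-likelihood test, fitted over all 11 groups and 19970 genes, gave both a p under 0.01 after Benjamini-Hochberg adjustment and a change of more than 0.58 on the log2 scale in either direction. Every adjusted p of a fold change comes from that test unless another is named, and a value without a library comes from the same test refitted without it. The study counts its bulk replicates in mice, while the labels mark them by replicate letters only. Against sham, 0 of the 10 genes were called at 3 h, 0 at 12 h, 0 at 24 h, 1 at day 3 and 2 at day 7, where 0.11%, 0.411%, 0.0901%, 4.02% and 3.5% of all genes tested were called. Against control, 1 was called at 24 h, 2 at day 3 and 2 at day 7, beside 0.28%, 3.1% and 1.5% of all genes. At 3 h, 12 h and 24 h, 1, 4 and 4 of the 10 had an unadjusted p under 0.05, as did 8.45%, 14.6% and 8.8% of all genes. At these times DESeq2 called 0, 0 and 1 of the 10, and 58, 179 and 44 of the 19970 genes.

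A pair of MCAO libraries stood apart from their groups. Replicate A of day 3 had the weakest injury response of its group, with a summed level of 31 reactive astrocyte genes of 424 CPM against a group median of 2327 CPM. Replicate C of day 7 had the highest summed level of 11 microglia markers, 5002 CPM against a group median of 1509 CPM. Calls that changed without either library are given beside the gene. Replicate A was singled out by its weak response, so calls made without it are not independent support. Without it 1353 of all genes were called against sham at day 3, beside 802 with it. The summed level of the striatum markers ran from 146 to 3800 CPM over the MCAO libraries and from 334 to 2063 CPM over the controls and shams. The 12 h groups differed, with 359 to 1323 CPM after MCAO and 573 to 2063 CPM in sham (median log2 fold change of the markers -1.70). With the striatum marker level as a covariate 28 of all genes were called against sham at 12 h, beside 82 without it.

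**Figure D1:**
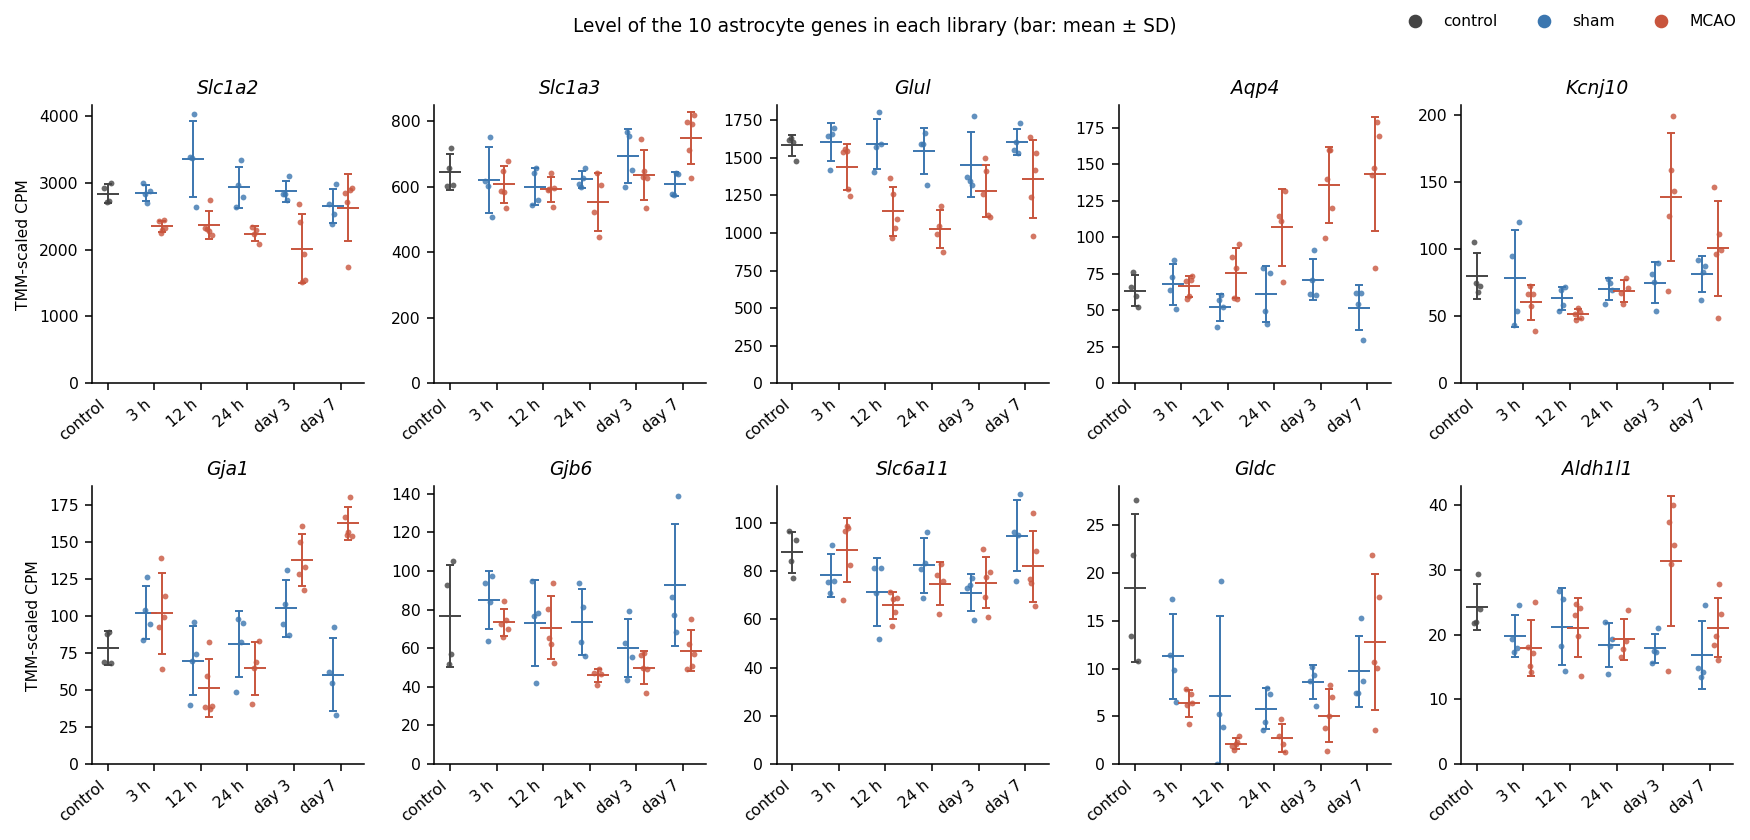
Level of each of the 10 genes in TMM-scaled CPM (vertical axes from 0) for every library (points), with the mean and SD of each group (bars), in control, sham and MCAO at each time. *Aqp4* and *Gja1* at day 7 sit above all sham libraries, and the 5 points of *Slc1a2* at 3 h sit below all sham points.

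*Slc1a2*, the main glutamate transporter of the forebrain, lay below sham at 3 h, 24 h and day 3 in every MCAO library. At 3 h the sham libraries held 2996, 2832, 2705 and 2874 CPM and the MCAO libraries 2424, 2244, 2287, 2451 and 2327 CPM. The groups did not overlap, which held in the same direction for 1.86% of the genes of at least 5 CPM. At 24 h sham held 2634, 2962, 3345 and 2792 CPM and MCAO 2338, 2231, 2301 and 2089 CPM, again without overlap (2.8% of genes). At day 3 sham held 2833, 2828, 2736 and 3102 CPM and MCAO 2677, 2417, 1518, 1933 and 1538 CPM. Replicates C and E were lowest, and the highest, A, was still under the lowest sham library (4.36% of genes). The log2 fold change against sham was -0.28 ± 0.14 (SE) at 3 h, -0.50 ± 0.14 (SE) at 12 h, -0.39 ± 0.14 (SE) at 24 h and -0.51 ± 0.14 (SE) at day 3, with adjusted p of 0.578, 0.0449, 0.344 and 0.0109. None was called. Without replicate A of MCAO day 3 the day 3 value was -0.63 with an adjusted p of 0.000732, and without replicate B it was -0.585 (0.00512), which were calls. Against the controls, at 2714 to 2991 CPM, all MCAO libraries of day 3 were lower too, as were 4.64% of genes (-0.49 ± 0.14 (SE), adjusted p = 0.017). This was a call without replicate A (-0.62, adjusted p = 0.00132) and with scaling to spike-in RNAs (-0.78, 0.00516).

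At day 7 *Slc1a2* stood at 2623 ± 501 CPM (SD, n = 5) after MCAO and 2646 ± 254 CPM (SD, n = 4) in sham. The difference was -0.01 on the log2 scale, with a 95% interval of -0.29 to 0.26. A single library, replicate C at 1738 CPM, lay below all sham libraries, and the other 4 lay between 2719 and 2918 CPM. Without it the difference was 0.10. The change of the MCAO effect from day 3 to day 7 was 0.50 ± 0.19 (SE) and did not pass (adjusted p = 0.199). Averaged over the 5 times, *Slc1a2* was at -0.34 ± 0.06 (SE) against sham with an adjusted p of 6.36e-05, under the fold required. An adjusted p under 0.01, whatever the fold, was reached by 8.23% of all genes in that comparison.

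*Glul*, which makes glutamine from the glutamate taken up, was lowest at 24 h. The MCAO libraries at 12 h held 1365, 969, 1260.2, 1036 and 1092 CPM and the sham libraries 1403, 1571, 1803 and 1591 CPM. At 24 h they held 995, 1048, 1182 and 874 CPM and 1593, 1593, 1669 and 1321 CPM. Every MCAO library was below every sham library at both times, as for 1.66% and 2.8% of genes. The log2 fold change was -0.48 ± 0.13 (SE) at 12 h and -0.59 ± 0.14 (SE) at 24 h, with adjusted p of 0.0449 and 0.0426. Against control at 24 h it was -0.63 ± 0.14 (SE) (adjusted p = 0.0103), just outside the threshold. DESeq2 in place of edgeR called both 24 h comparisons, with -0.60 against sham (adjusted p = 0.00319) and -0.62 against control (0.000502). At day 3 and day 7 the groups overlapped, with -0.18 and -0.24 against sham, the latter -0.14 without MCAO replicate C. Over all times *Glul* was at -0.33 ± 0.06 (SE) (adjusted p = 4.16e-05), under the fold required.

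*Slc1a3*, the second glial glutamate transporter, kept within a narrow range. Its group means ran from 554 CPM at MCAO 24 h to 748 CPM at MCAO day 7. At day 7 the MCAO libraries held 797, 710.4, 625, 791 and 818 CPM and sham 577, 575, 640.5 and 639 CPM, a log2 difference of 0.30 ± 0.12 (SE) that was not called (adjusted p = 0.106). At the earlier times the log2 difference from sham lay between -0.17 (24 h, 95% interval -0.42 to 0.08) and -0.02 (12 h, -0.26 to 0.22).

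The ratio of *Slc1a3* to *Slc1a2* counts within a library, which needs no scaling between libraries, was examined after the levels had been seen. Its mean log2 value was higher after MCAO than in sham at each of the 5 times, by 0.26, 0.47, 0.20, 0.42 and 0.33 in order of time. At day 7 the log2 ratios were -2.22, -2.05, -1.99 and -2.22 in sham and -1.84, -1.94, -1.48, -1.87 and -1.83 after MCAO, which did not overlap. The exact two-sided permutation p at day 7 was 0.0159, the smallest that 5 against 4 libraries can give, and 0.0794 after adjustment over the 10 tests made on ratios. None of the 10 passed an adjusted p of 0.05.

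Of the other genes of glutamate and GABA handling, none was called against sham by edgeR and 2 were called against control. Of 19 such genes (glutaminases, transaminases, vesicular and neuronal transporters, glutamine carriers, GABA synthesis and breakdown), 18 were tested and 0 were called against sham at any time. Their median log2 fold change was -0.30 at 12 h and -0.25 at day 3, beside 0.01 for all genes at both. Against control, *Slc38a2*, a glutamine carrier, fell by 0.84 on the log2 scale at 24 h (adjusted p = 0.00281) and by 0.66 at day 3 (0.00314), and the glutaminase *Gls2* fell by 1.28 at day 7 (0.00774). Both were named after their values were seen.

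*Aqp4*, the water channel of the perivascular endfeet, was called at more times against sham than any other member. It was level with sham at 3 h (-0.03 ± 0.22 (SE) on the log2 scale), stood at 0.53 ± 0.22 (SE) at 12 h and 0.80 ± 0.23 (SE) at 24 h without passing (adjusted p = 0.234 and 0.159), and was called at 0.94 ± 0.22 (SE) at day 3 (adjusted p = 0.00294) and 1.47 ± 0.22 (SE) at day 7 (adjusted p = 2.85e-05). The differences between successive times were not called (adjusted p from 0.386 to 1). Averaged over the times it rose by 0.74 ± 0.10 (SE) with an adjusted p of 2.27e-07, and it was the single member called in that comparison, where 4.89% of all genes were.

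At 24 h the sham libraries held 79.0, 49.3, 40.9 and 75.5 CPM of *Aqp4* and the MCAO libraries 114, 111, 69.5 and 132 CPM, where MCAO replicate C lay within the sham range. At day 3 sham held 61.3, 71.1, 91.1 and 60.4 CPM and MCAO 99.8, 139.6, 159.8, 159.7 and 119.9 CPM. At day 7 sham held 61.8, 54.6, 61.6 and 29.7 CPM and MCAO 143, 148, 79.1, 179 and 169.7 CPM. MCAO lay wholly above sham at day 3 and day 7, as 5.27% and 6.91% of genes did, and the narrowest gap was set by replicate A at day 3 and replicate C at day 7. Against the controls, which held 65.8, 76.5, 59.8 and 52.0 CPM, the rise was 1.10 ± 0.22 (SE) at day 3 (adjusted p = 0.000748) and 1.18 ± 0.22 (SE) at day 7 (0.000755). All MCAO libraries were above all controls at both times, as were 5.17% and 4.76% of genes. Both sets of comparisons use the same MCAO libraries. The day 7 shams had the lowest *Aqp4* mean of the 11 groups, 51.9 CPM, beside 71.0 CPM in the day 3 shams and 63.5 CPM in control. The MCAO means were 136 CPM at day 3 and 144 CPM at day 7, so the larger day 7 value against sham also reflects lower shams.

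The day 7 rise of *Aqp4* against sham was called with each of the 9 libraries left out in turn (log2 fold change 1.26 to 1.62, the highest without MCAO replicate C). At day 3 it was 1.03 without replicate A. The day 3 call was lost without MCAO replicate C (0.87, adjusted p = 0.014), sham A (0.87, 0.0208), sham B (0.94, 0.0116) or sham D (0.86, 0.0211). It was lost as well when libraries were scaled to the ERCC spike-ins, synthetic RNAs added in equal amount to each library (0.67, 0.0818), as was that against control at day 3 (0.76, 0.0424). The day 7 call against control was lost with that scaling (1.06, 0.01001) and without control replicate D (1.09, 0.0104).

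*Kcnj10*, which carries potassium into astrocytes, stood highest at day 3. The day 3 sham libraries held 81.2, 75.7, 54.2 and 89.5 CPM and the MCAO libraries 68.9, 125, 159, 199 and 144 CPM. MCAO replicate A lay within the sham range, and the other 4 lay above it. The log2 fold change was 0.89 ± 0.24 (SE) with an adjusted p of 0.0118, just short of a call. Without replicate A it was 1.06 (adjusted p = 0.000901), a call. With all libraries it was called by DESeq2 in place of edgeR (0.91, adjusted p = 0.00314). In edgeR it was called with DESeq2's size factors (0.91, 0.00958), filterByExpr (0.90, 0.00917) and no filter (0.87, 0.00456). The replicate block (0.93, 0.00807) and the striatum covariate (0.87, 0.00756) gave a call too, while spike-in scaling and only the compared groups did not. Against control at day 3 it was 0.79 ± 0.24 (SE) (adjusted p = 0.0318), and without replicate A 0.965 (0.00326), also a call. At 12 h the MCAO libraries held 51.9, 47.1, 56.3, 53.5 and 48.8 CPM and sham 54.2, 69.3, 58.4 and 72.1 CPM, a log2 difference of -0.30 ± 0.24 (SE) that was not called. At day 7 it was 0.31 ± 0.24 (SE), with MCAO replicate C the lowest library at 48.8 CPM, and without it 0.48.

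Of 15 further genes of the endfoot membrane and its dystrophin scaffold, 14 were tested. *Lama2*, the laminin chain of the vascular basement membrane, fell by 1.70 on the log2 scale at 12 h (adjusted p = 0.00755), from a sham median of 8.98 CPM to 2.91 CPM. None of the others was called at any time, and the median of the 14 was -0.04 at day 3 and 0.10 at day 7, where *Aqp4* was called.

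**Figure D2:**
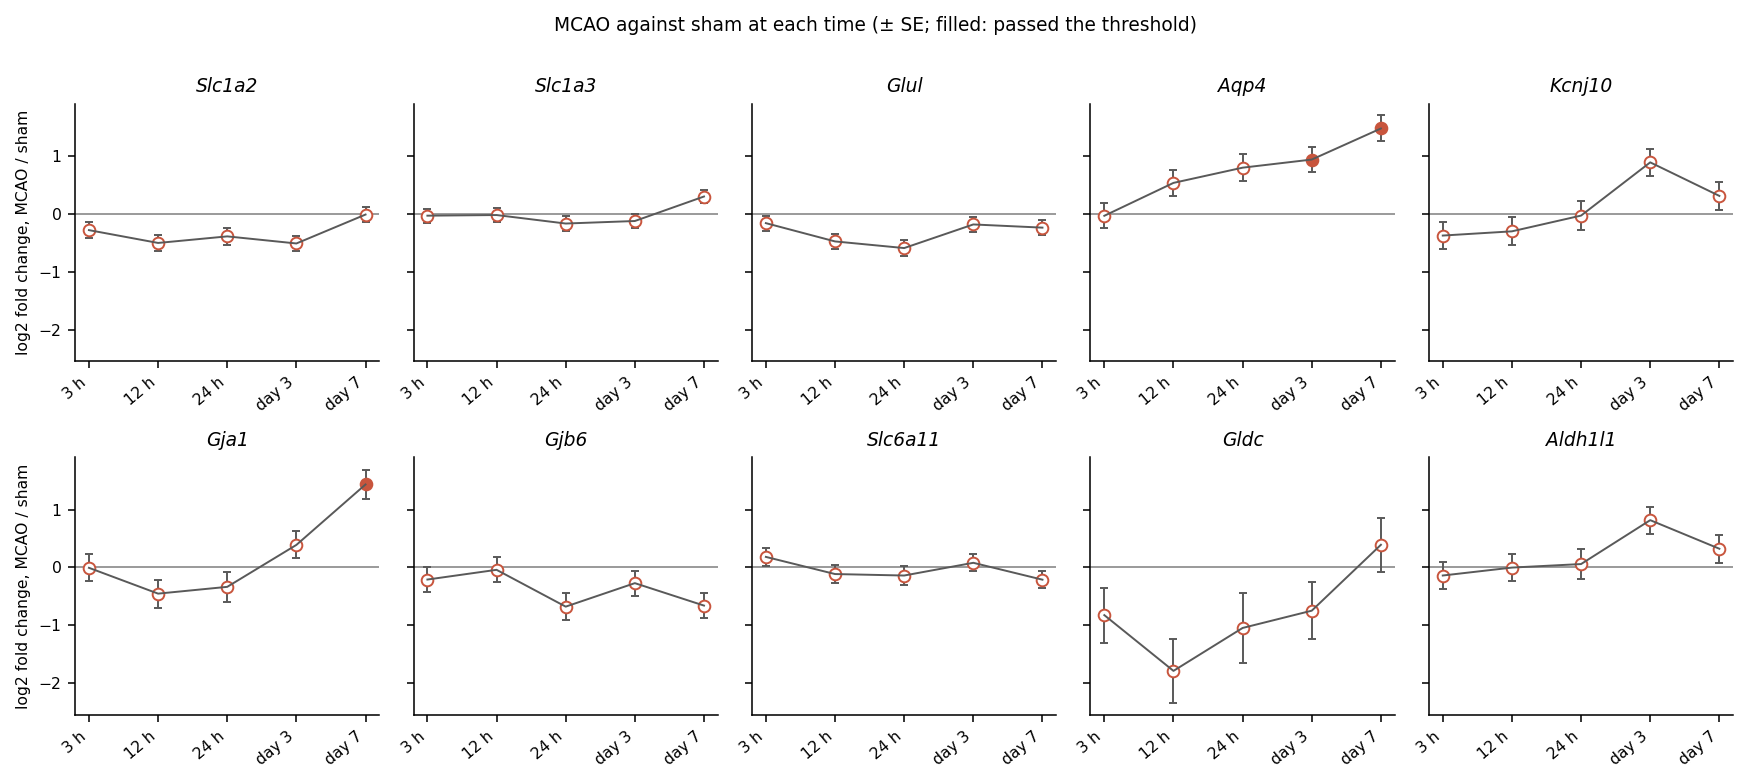
Log2 fold change of MCAO against sham (vertical axis) at 3 h, 12 h, 24 h, day 3 and day 7 (horizontal axis) for each of the 10 genes, with the standard error of the edgeR fit. Filled points passed the threshold, which were *Aqp4* at day 3 and day 7 and *Gja1* at day 7.

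Of the connexins that link astrocytes, *Gja1* rose at day 7 and *Gjb6* was not called. *Gja1* rose to 162 ± 11.2 CPM (SD, n = 5) from 60.3 ± 24.5 CPM (SD, n = 4) in sham, while *Gjb6* was at 58.8 ± 10.4 CPM (SD, n = 5) against 92.6 ± 31.6 CPM (SD, n = 4). Their upstream sequences are shown because at day 7 the means of these genes lay on opposite sides of sham in the same libraries. The bases are the 250 before the RefSeq start in GRCm38.p6, at chr10:56377050-56377299 (plus strand) for *Gja1* and chr14:57133612-57133861 (minus strand) for *Gjb6*, read 5′ to 3′ along the gene, and neither window holds an annotated gene or exon of Gencode vM21. Capitals mark a match to the AP-1 motif TGANTCA.
Gja1: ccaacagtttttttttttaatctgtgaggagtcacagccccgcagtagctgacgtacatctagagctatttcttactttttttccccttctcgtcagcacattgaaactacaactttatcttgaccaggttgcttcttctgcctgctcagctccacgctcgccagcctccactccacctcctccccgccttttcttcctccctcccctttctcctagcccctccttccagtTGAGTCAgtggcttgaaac
Gjb6: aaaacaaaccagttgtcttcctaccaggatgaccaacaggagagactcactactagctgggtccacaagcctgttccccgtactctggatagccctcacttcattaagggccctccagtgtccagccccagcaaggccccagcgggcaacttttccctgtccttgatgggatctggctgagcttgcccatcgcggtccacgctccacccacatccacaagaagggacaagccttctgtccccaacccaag

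The AP-1 match of *Gja1* lies 19 to 13 bases before the start. The windows were searched on both strands for AP-1 (TGANTCA), a STAT motif (TTCNNNGAA), the GC box (GGGCGG) and the TATA box (TATAAA), which are held by 6.75%, 7.02%, 32.7% and 12.4% of the 32851 RefSeq windows of that length. Of the 9 genes with a window, *Gja1* alone held the AP-1 letters, *Slc1a3* held the STAT and TATA box letters, and 6 held the GC box (*Glul*, *Kcnj10*, *Aldh1l1*, *Slc6a11*, *Slc1a3* and *Gldc*). The *Gjb6* window held none of these letters. Matches are descriptions of sequence, and binding was not measured.

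The day 7 sham libraries held 61.8, 54.6, 92.1 and 32.8 CPM of *Gja1* and the MCAO libraries 167, 154, 156, 179.9 and 154 CPM. All MCAO libraries lay above all sham libraries, as 6.91% of genes did, and the shams were spread over a wider range than the MCAO libraries. The log2 fold change was 1.43 ± 0.24 (SE) (adjusted p = 0.000126), and it was called with each of the 9 libraries left out in turn (1.21 to 1.71) and with spike-in scaling (1.46). The control libraries held 68.6, 87.7, 89.2 and 68.5 CPM, and the rise against them was 1.05 ± 0.24 (SE) (adjusted p = 0.00587). That call was lost without MCAO replicate C or D or any 1 of the controls (0.99 to 1.12, adjusted p from 0.0124 to 0.0383) and with spike-in scaling (0.90, 0.076).

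At day 3 *Gja1* stood at 138 ± 17.4 CPM (SD, n = 5) after MCAO, 105 ± 19.2 CPM (SD, n = 4) in sham and 78.5 ± 11.5 CPM (SD, n = 4) in control. MCAO lay above all controls, as 5.17% of genes did, and overlapped sham. The log2 fold change was 0.39 ± 0.23 (SE) against sham and 0.81 ± 0.24 (SE) against control (adjusted p = 0.339 and 0.0274). At 12 h, where MCAO held 38.6, 59.2, 82.4, 37.1 and 39.3 CPM and sham 39.7, 69.3, 95.8 and 74.4 CPM, it was -0.45 ± 0.24 (SE) with an adjusted p of 0.382. The change of the MCAO effect from day 3 to day 7, 1.04 ± 0.33 (SE), did not pass (adjusted p = 0.123). Between these times the sham mean went from 105 to 60.3 CPM and the MCAO mean from 138 to 162 CPM.

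Across the 48 libraries the level of *Gja1* had a Pearson correlation of -0.63 with the percentage of alignments that fell in no gene, the strongest of the 10 genes (the others ran from -0.41 for *Kcnj10* to 0.26 for *Slc1a2*). These points share scaling and groups. At day 7 that percentage was 21.1 to 24.1% after MCAO and 23.3 to 24.2% in sham, and the percentage of alignments that were not unique was 30.9 to 35.3% and 28.8 to 30.4%. The part of these shares in the day 7 result was not tested.

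*Gjb6* was lowest at 24 h, where the MCAO libraries held 47.2, 41.1, 49.1 and 46.4 CPM and sham 93.8, 63.2, 81.1 and 56.1 CPM. The groups did not overlap, as for 2.8% of genes, and the log2 fold change was -0.68 ± 0.23 (SE) with an adjusted p of 0.279. At day 7 MCAO held 49.0, 62.1, 75.0, 50.9 and 57.0 CPM and sham 86.4, 77.0, 68.1 and 139 CPM, with sham replicate D the highest and an overlap of MCAO replicate C with sham replicate C. The log2 fold change was -0.66 ± 0.21 (SE) (adjusted p = 0.0412). The day 7 shams had the highest mean of the 11 groups, 92.6 CPM, beside 76.6 CPM in control. Against control at day 7 the log2 fold change was -0.38 ± 0.22 (SE) (adjusted p = 0.419). Over all times against sham it was -0.37 ± 0.10 (SE) with an adjusted p of 0.0055, under the fold required.

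The log2 ratio of *Gja1* to *Gjb6* counts within a library, a measure chosen after the levels had been seen, was -0.48, -0.50, 0.44 and -2.08 in the day 7 shams and 1.77, 1.31, 1.06, 1.82 and 1.43 in the MCAO libraries. Every MCAO library was above every sham library, by 4.39-fold between the means. At day 3 the ratio was 0.59, 1.32, 0.72 and 0.66 in sham and 1.18, 1.59, 1.49, 1.68 and 1.43 after MCAO, with 1 sham library inside the MCAO range and 1.57-fold between the means. The exact two-sided permutation p was 0.0159 at day 7, the smallest possible, and 0.0317 at day 3, and both were 0.0794 after adjustment over the 10 ratio tests. The ratio also varied among uninjured and sham libraries. Over the 24 control and sham libraries it ran from -2.08 to 1.32, and the day 7 shams included the lowest of them.

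**Figure D3:**
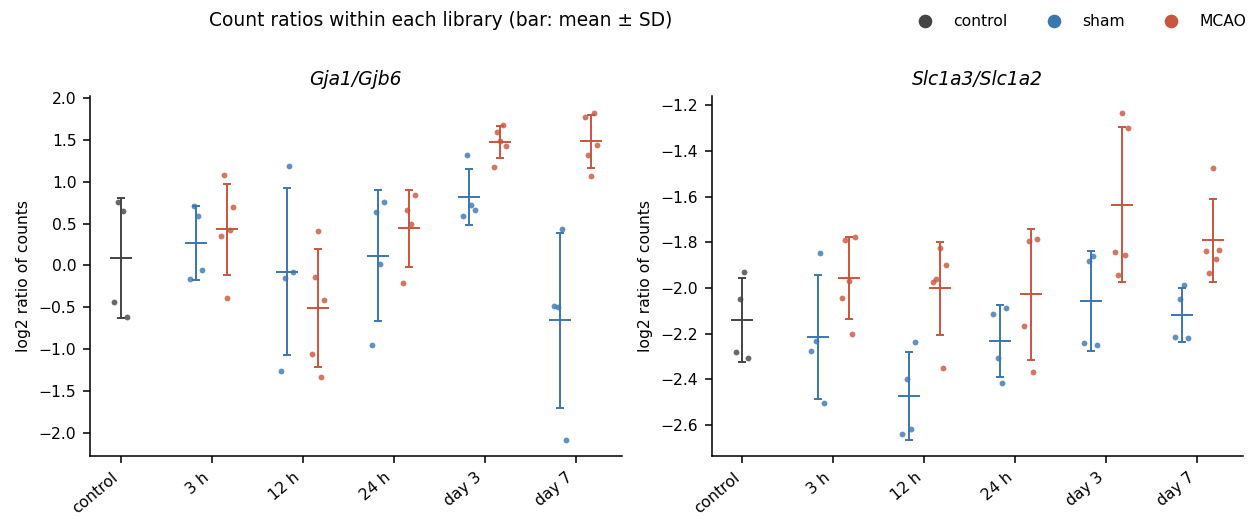
Log2 ratio of the counts of *Gja1* to *Gjb6* (left) and of *Slc1a3* to *Slc1a2* (right) in every library (points), with the mean and SD of each group (bars), in control, sham and MCAO. For *Gja1* to *Gjb6* the 5 MCAO libraries of day 7 lie from 1.06 to 1.82 and the 4 shams from -2.08 to 0.44.

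Of 11 other connexins and pannexins, 1 was called. *Gjb1* (Cx32), a connexin of oligodendrocytes, rose by 2.04 on the log2 scale at day 3 (adjusted p = 0.00769), from a sham median of 3.63 CPM to 22.1 CPM. Against control, with a median of 7.84 CPM, it was at 1.46 ± 0.51 (SE) at day 3 and was not called (adjusted p = 0.0735). The list's median against sham was 0.11 at day 3 and 0.25 at day 7, beside 0.01 and 0.06 for all genes.

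*Gldc* had the fewest reads of the 10, 0 to 52 in a library, and the widest range of group means (8.60-fold). The control libraries held 13.4, 21.9, 27.7 and 10.8 CPM, the highest group mean, and the MCAO libraries of 12 h held 1.85, 1.46, 2.09, 2.35 and 2.98 CPM, the lowest. At 24 h MCAO held 2.97, 4.67, 2.12 and 1.22 CPM, below every control library, as 5.15% of genes were. *Gldc* fell by 2.69 ± 0.55 (SE) on the log2 scale against control at 24 h (adjusted p = 0.00561) and by 1.85 ± 0.48 at day 3 (adjusted p = 0.00996), where MCAO held 3.74, 1.36, 4.99, 8.30 and 7.05 CPM. At both times the sham mean lay between. Against sham of the same time the log2 fold change was -0.82 at 3 h, -1.78 at 12 h, -1.04 at 24 h and -0.75 at day 3, with adjusted p from 0.096 to 0.666, and none was called. The 12 h value was -0.56 without sham replicate C and -2.16 without sham replicate A, and was not called in either case.

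The mean of all shams against control was -1.14 ± 0.35 (SE) for *Gldc*, with an unadjusted p of 0.0021 and an adjusted p of 0.694. At 12 h the sham libraries held 0, 5.21, 19.2 and 3.90 CPM, so that replicate C alone was above 6 CPM. Replicate A had no read of *Gldc* among 1832129, and 3 reads, the limit that a count of 0 allows, would be 1.64 CPM (counting error only). The 24 h call against control was lost without any 1 of 5 libraries (MCAO A, C or D and control B or C, -2.73 to -2.43, adjusted p from 0.0213 to 0.037). The day 3 call, which passed by a small margin, was lost without any 1 of 7 libraries (MCAO A, B, C or E and control A, B or C, -1.997 to -1.58, adjusted p from 0.0142 to 0.0656). It was lost as well with DESeq2's size factors (-1.83, 0.0106), the replicate block (-1.90, 0.0117) or only the compared groups in the fit (-1.84, 0.0201). By day 7 *Gldc* stood at 12.8 ± 7.12 CPM (SD, n = 5) after MCAO and 9.71 ± 3.75 CPM (SD, n = 4) in sham, a log2 difference of 0.39 ± 0.47 (SE) that was 0.62 without MCAO replicate C.

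Of 14 other enzymes of glycine cleavage and folate metabolism, *Gcsh*, the lipoyl carrier protein of the glycine cleavage system, rose by 0.98 at day 3 (adjusted p = 0.00157), from a sham median of 24.4 CPM to 42.9 CPM. It was the 1 gene of the list called at any single time. The day 3 shams were low in *Gcsh*, whose sham median was 43.3 to 61.3 CPM at the other times and whose control median was 35.8 CPM, and against control at day 3 it was at 0.27 ± 0.21 (SE) (adjusted p = 0.508). *Gldc* at the same time was at -0.75 ± 0.49 (SE) against sham.

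*Aldh1l1* stood highest at day 3, where MCAO held 14.4, 37.5, 30.96, 40.04 and 33.9 CPM and sham 15.6, 17.5, 17.3 and 21.1 CPM. Replicate A was the lowest library of both groups and the other 4 MCAO libraries lay above every sham. The log2 fold change was 0.82 ± 0.23 (SE) with an adjusted p of 0.0173, and without replicate A it was 1.00 with an adjusted p of 0.000967, a call. DESeq2 in place of edgeR called the day 3 rise with all libraries (0.84, adjusted p = 0.0049). Against control, at 24.3 ± 3.55 CPM (SD, n = 4), the log2 fold change was 0.37 ± 0.23 (SE). An antisense gene, *Gm15756*, overlaps the last kilobase of *Aldh1l1* on the other strand, and since the strand setting of the counting is not given in the sources used here, reads of the pair may not have been told apart.

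*Slc6a11* was not called in any comparison. Its group means ran from 65.8 CPM at MCAO 12 h to 94.8 CPM at sham day 7, and the log2 fold change against sham lay between -0.21 (day 7, 95% interval -0.51 to 0.09) and 0.18 (3 h, -0.12 to 0.48).

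No member was called for sham surgery. In the mean of the 5 shams against control 0 of 10 were called, beside 0.02% of all genes, by DESeq2 0 as well, and 1 (*Gldc*) had an unadjusted p under 0.05, beside 4.77% of all genes. Apart from *Gldc* and *Aldh1l1* (-0.37) the log2 fold changes lay between -0.15 and 0.06. The changes of the MCAO effect between successive times were called for none of the 10 genes, and for 2, 2, 2 and 0 of all genes in order of time, while 7.12%, 5.08%, 8.82% and 16.2% of all genes had an unadjusted p under 0.05. Of the 10 members 0, 1, 4 and 3 had an unadjusted p under 0.05, which were *Gjb6* from 12 h to 24 h, *Glul*, *Aldh1l1*, *Kcnj10* and *Gja1* from 24 h to day 3, and *Slc1a2*, *Slc1a3* and *Gja1* from day 3 to day 7.

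The 10 genes were weakly correlated with each other over the libraries. Over the 48 libraries the 45 pairs of the 10 genes had a median Pearson correlation of 0.09 in log2(CPM + 1), from -0.65 (*Aqp4* and *Gjb6*) to 0.59 (*Slc1a2* and *Glul*), and 4 pairs were above 0.5. The gene outside the 10 whose pattern was most like that of *Aqp4* was *C4b*, complement component 4 (r = 0.81). For *Slc1a2* it was *Gria2*, an AMPA glutamate receptor subunit (0.82), for *Gja1* *Itm2b* (0.86), for *Gjb6* the noncoding RNA *Meg3* (0.79) and for *Gldc* *Gna11* (0.76). The closest matches of the others were *Col25a1* for *Slc1a3* (0.74), *Prdx6* for *Kcnj10* (0.72), *Abhd17a* for *Glul* (0.71), *Vwf* for *Aldh1l1* (0.62) and *mt-Nd2*, encoded in the mitochondrial DNA whose reads had been filtered before counting, for *Slc6a11* (0.57). Another member was among the 50 genes most like it for *Glul* (*Slc1a2*) and *Slc6a11* (*Gjb6*) and for none of the other 8. These correlations are descriptions over libraries that share groups and scaling.

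At most 3 of 32 other general astrocyte genes were called against sham at a single time. At day 3, 15 of 31 reactive astrocyte genes were called. Of the 32, 0, 1, 0, 3 and 1 were called at 3 h, 12 h, 24 h, day 3 and day 7, all lower but 1 at day 3. Of all genes tested, 0.11%, 0.411%, 0.0901%, 4.02% and 3.5% were called at these times. The zinc transporter *Slc39a12* fell by 1.76 on the log2 scale at 12 h (adjusted p = 0.00211), and at day 3 *Etnppl*, which breaks down phosphoethanolamine, fell by 1.73 (0.00764) and the proline dehydrogenase *Prodh* by 1.10 (0.00922). The potassium channel subunit *Kcnj16* rose by 0.80 at day 3 (adjusted p = 0.00337), and the glutamate receptor *Grm3* fell by 0.94 at day 7 (0.00814), both named after their values were seen. The median log2 fold change of the 32 ran from -0.18 at 24 h to 0.13 at day 3, and that of the 10 members from -0.25 at 24 h to 0.30 at day 7. Of 31 reactive astrocyte genes, 0, 7, 3, 15 and 7 were called, all of them higher, with medians of 0.82, 2.14, 2.07, 2.65 and 2.30. The 31 genes were listed as markers of reactive astrocytes, and their RNA from other cells was not separated. At day 3, 9 of 11 microglia markers were called higher in the same comparison. The calls on the reactive list can therefore not be assigned to astrocytes alone.

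*Gfap*, the intermediate filament of reactive astrocytes, rose by 2.67 at 12 h, 3.16 at 24 h, 4.42 at day 3 and 3.10 at day 7 on the log2 scale (adjusted p of at most 5.6e-05), from a sham median of 39.8 CPM to 1029.9 CPM at day 3. *Vim*, another intermediate filament, rose by 3.78 at day 3 and 3.32 at day 7. The protease inhibitors *Timp1* and *Serpina3n* rose at day 3 by 5.83 and 5.19, and the iron-siderophore binder *Lcn2* by 4.93. Which cells held the RNA of *Timp1*, *Serpina3n* and *Lcn2* was not tested. *Aqp4* at its highest, 1.47 at day 7, was below the day 7 values of *Gfap* and *Vim*.

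**Figure D4:**
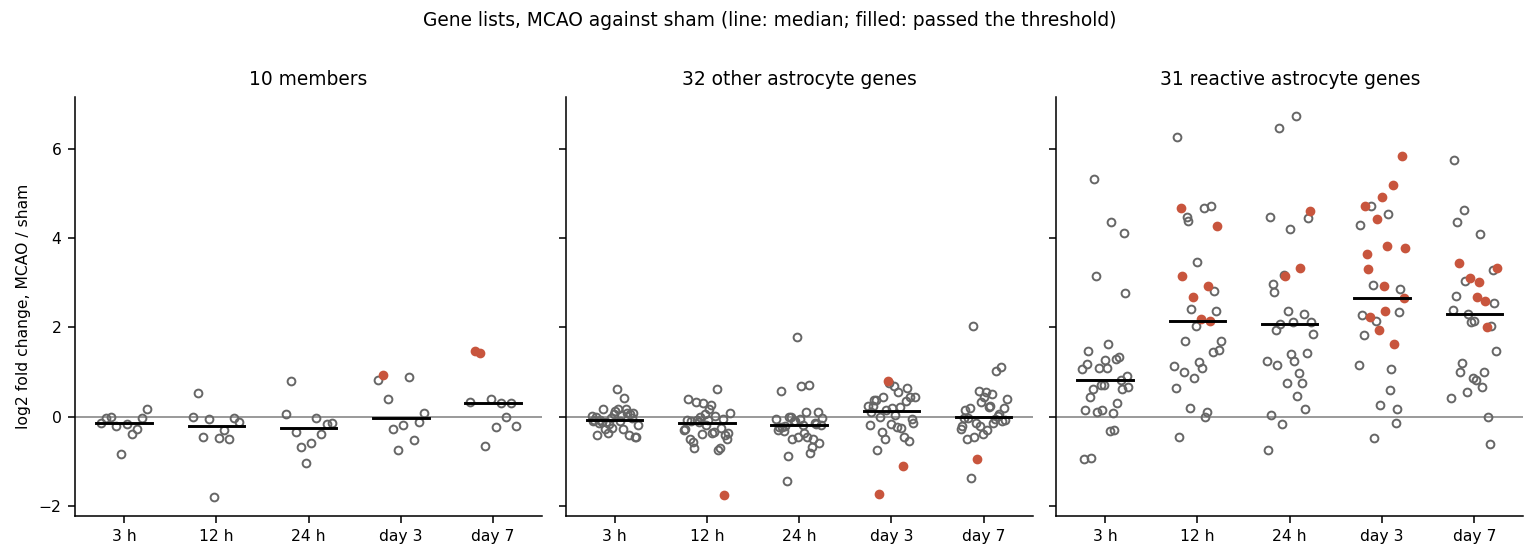
Log2 fold change of MCAO against sham (vertical axis) at each time (horizontal axis) for the 10 members, 32 other astrocyte genes and 31 reactive astrocyte genes. Each point is a gene, filled where it passed the threshold, and lines are medians, which at day 3 lie at -0.02, 0.13 and 2.65.

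Markers of other cell types moved with the same comparisons. At day 3 the summed level of all 11 microglia markers was 835 to 3465 CPM after MCAO and 361 to 480.1 CPM in sham, 9 of the 11 were called higher, and none was at 0. At day 7 it was 1163 to 5002 CPM against 517 to 667 CPM, with 7 of 11 called higher. The 12 neuron markers summed to 20444 to 26030 CPM at day 3 against 24357 to 32443 CPM in sham, with 1 called lower, and to 14705 to 21880 CPM at day 7 against 27726 to 42345 CPM, with 2 called lower (*Nrgn* and *Rbfox3*). The 9 endothelial markers summed to 329 to 750.1 CPM at day 3 against 333 to 386 CPM, with 3 called higher. At day 7, where *Aqp4* and *Gja1* were called, the 9 cortex markers summed to 1407 to 2028 CPM after MCAO and 2805 to 3543 CPM in sham, with 3 called lower and a median log2 fold change of -0.95. The 9 markers of fibroblasts and meninges summed to 995 to 6400.2 CPM against 1737 to 1966 CPM at day 7, with 5 called higher and a median of 2.43, and 3 of them were called higher at day 3. The 8 markers of oligodendrocyte precursors summed to 319 to 365 CPM against 153 to 232 CPM, with 3 called higher and a median of 1.12. Of 8 markers of infiltrating leukocytes tested, 4 were called higher at day 3 and 2 at day 7, with sums of 6.41 to 701 CPM and 14.4 to 101 CPM after MCAO and at most 5.15 CPM in sham. The part of these cell types in the values of the 10 genes was not tested. With the striatum marker level as a covariate, added after the data had been seen, the day 7 values of *Aqp4* and *Gja1* were 1.48 and 1.43 and that of *Aqp4* at day 3 was 0.93, and all were called.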

How the data were processed

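Bulk 3′ RNA-seq of 48 libraries was analysed, 1 table of raw counts each. The libraries were primed on poly(A) and hold ERCC spike-ins. Per the labels and the methods, the authors trimmed adapters, took out reads from mitochondria and ribosomes (SortMeRNA), mapped what was left with STAR 2.5.2b onto GRCm38 joined with the spike-in sequences, counted reads per gene in HTSeq's union mode and deposited the counts. Reads without a gene (21.1 to 30.6% of the alignments listed), ambiguous reads (0.343 to 0.475%) and reads that were not unique (24.0 to 37.3%) were left out of the library sizes, and spike-ins entered one scaling alternative only. A deposited matrix on a log2 scale, made by the authors with DESeq2, was not used here. Groups and replicate letters came from the labels. No table held columns of other samples.

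Gencode vM21, on the same build, gave symbols for 46488 of 46983 identifiers. The quasi-likelihood test of edgeR 4.0.16 (glmQLFit and glmQLFTest, R 4.3.3), after TMM scaling, covered each gene whose counts summed to more than 10 and was run in 1 fit of the 11 groups with 14 comparisons, where the biological coefficient of variation was 24.9%. The script was tested on simulated data. Counting error is largest for *Gldc* (0 to 52 reads in a library) and smallest for *Slc1a2* (2921 to 10902). Ratios of counts were tested with exact permutation tests in scipy 1.17.1 under Python 3.11.15. Promoter windows came from RefSeq (GRCm38.p6), where 9 of the 10 members matched. *Aqp4* did not.

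All 10 members were named, *Gfap* and *Vim* as well, and from each further list up to 3 genes of at least 2 CPM with the largest fold change among those called against sham at a single time. Correlated genes needed a mean of 10 CPM. The members, lists and tests were chosen with earlier results of these data known, and the ratios and the striatum covariate after the levels had been seen. The alternatives were DESeq2 1.42.0 or its size factors, spike-in scaling, filterByExpr or no filter, only the compared groups, blocking on the replicate letter, and leaving out each library.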

Additional observations from a re-analysis of the deposited data

Results flagged for a closer look

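In 110 pairs of a gene and a group, each of 4 or 5 libraries, 6 had a library far from the others by Dixon's ratio, where chance alone flags about 1 in 20. *Slc1a2* was at 2738 CPM in replicate D of MCAO 12 h, above the other 4, and at 1738 CPM in replicate C of MCAO day 7, below the other 4. *Glul* was at 1480.3 CPM in replicate D of the controls, below the others, and at 1777 CPM in replicate D of sham day 3, above them. *Gldc* was at 15.3 CPM in replicate C of sham day 7 and *Aldh1l1* at 24.6 CPM in replicate D of that group, both above the others. No effect of MCAO on a member was called as different between successive times.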

How the results depend on the processing

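The day 7 rises of *Aqp4* and *Gja1* against sham, the rise of *Aqp4* over all times and the counts of 0 members at 3 h and 12 h, for sham against control and between successive times held under every alternative run. The number of members called against sham at day 3 was 1, and it was 0 with spike-in scaling. It was 2 with DESeq2's size factors, filterByExpr, no filter, the striatum covariate or the replicate block (*Kcnj10* added). With DESeq2 it was 3 (*Kcnj10* and *Aldh1l1* added). At 24 h it was 0, and 1 with DESeq2. Against control it was 1 at 24 h, and 2 with filterByExpr or DESeq2, 2 at day 3, 1 with DESeq2's size factors or the replicate block, 3 with DESeq2 (*Gja1* added) and 3 with spike-in scaling (*Slc1a2* and *Gjb6* added, *Aqp4* lost), and 2 at day 7, and 0 with spike-in scaling. With only the compared groups it stayed at 2 at day 3, with *Gja1* called (0.81, adjusted p = 0.00737) and *Gldc* not (-1.84, 0.0201). Over all times it was 1, and 2 with no filter or DESeq2. With 1 library left out it ranged from 0 to 4 at day 3 against sham, 0 to 1 at 24 h, 1 to 3 at day 3 and 0 to 2 at day 7 against control, and 1 to 2 over all times. The cause of these shifts was not tested.

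Of all genes, 22, 82, 18, 802 and 698 were called against sham in order of time. With no filter 58, 171 and 55 were called at 3 h, 12 h and 24 h, with DESeq2 58, 179, 44 and, at day 7, 1096, and with only the compared groups 44, 13, 51, 339 and 302. Spike-in scaling gave 14 at 3 h and 39 at 24 h, and at 12 h the striatum covariate gave 28 and the replicate block 53. Against control 56, 619 and 300 were called, with only the compared groups 126, 224 and 165, and at 24 h and day 7 103 and 461 with no filter and 120 and 463 with DESeq2. Sham against control gave 4, and 7 with no filter or spike-in scaling. The effect changed between 3 h and 12 h for 2 genes (5 with no filter, 1 with only the compared groups), between 24 h and day 3 for 2 (6 with no filter, 5 with DESeq2) and between day 3 and day 7 for 0 (1 with spike-in scaling or only the compared groups, 3 with DESeq2's size factors, 4 with the striatum covariate, 37 with no filter, 57 with DESeq2). With 1 library left out the ranges against sham were 5 to 20, 21 to 102, 6 to 21, 441 to 1353 (the highest without MCAO replicate A) and 241 to 676, against control 32 to 51, 364 to 1075 and 82 to 318, for sham against control 1 to 5, and between successive times 2 to 5, 2 to 2, 2 to 11 and 0 to 32.

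*Slc6a11* reversed with spike-in scaling in the change of the MCAO effect from 24 h to day 3 (-0.15, from 0.22) and from day 3 to day 7 (0.034, from -0.29), and *Gldc* reversed from 3 h to 12 h without sham 12 h replicate C (0.26, from -0.96, with a range of -1.34 to 0.26 over the libraries left out). None of these was called. Spike-in scaling moved the median log2 fold change of all genes from 0.01 to -0.22 at day 3 against sham and from 0.02 to -0.28 against control, and to 0.14 at 24 h and day 7 against sham. With it the share of calls that were higher went from 81.8% to 64.3% at 3 h, 93.5% to 77.9% at day 3 and 59.2% to 82.4% at day 7 against sham, and from 90.6% to 50.3% at day 3 against control.

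Deviations from the group means were compared over 226 pairs of libraries with the same replicate letter in different groups. Their mean correlation was 0.02 (-0.51 to 0.64), and 66 pairs exceeded 0.1. Over 820 pairs with different letters it was -0.006 (-0.63 to 0.72), and 206 pairs exceeded 0.1. The labels do not say whether the letters pair libraries, and ranges this wide cannot decide it. With the replicate block *Kcnj10* at day 3 against sham was called (0.93, adjusted p = 0.00807) and *Gldc* at day 3 against control was not (-1.90, adjusted p = 0.0117). For *Gldc*, at most 52 reads in a library limit what can be detected.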
